A study of Mus musculus with 9 samples.

Results

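The 9 chromosome 17 genes described here across 9 RNA-sequencing libraries of splenic myeloid-derived suppressor cells (MDSCs) are Prss29, Gm8801, Glo1, 9030025P20Rik, 9130008F23Rik, Ddr1, Ip6k3, Cyp4f16 and Olfr99. They were picked because their expression differed between the Mo-MDSCs labelled p16/p21 DKO and the WT Mo-MDSCs, and because each lies within 20 Mb of Cdkn1a, the gene of p21 and one of the genes deleted in this strain. They are 9 of the 23284 genes with values and 9 of the 803 genes placed within 20 Mb of Cdkn1a. The difference between DKO and WT Mo-MDSCs therefore chose them and is given below as a description, without a test, whereas the level in PMN-MDSCs played no part in the choice.

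The libraries came from mice carrying SCTs, tumours of inoculated spindle cell tumour cells, and the cells were purified from the spleen. There were 3 groups of 3 libraries: PMN-MDSCs (polymorphonuclear, neutrophil-like) of p16/p21 wild-type mice, Mo-MDSCs (monocytic) of p16/p21 wild-type mice, and Mo-MDSCs of p16/p21 double-knockout mice. The labels give every group an age of 3 weeks, while the methods give 3 weeks as the time from inoculation to collection. By the methods the mice were already well over 3 weeks old at inoculation, so the label is not their age at collection. The strain label is C57BL/6J for both WT groups and C57BL/6 for the DKO group, so genotype and strain label cannot be told apart, and DKO PMN-MDSCs were not analysed here. Both subsets were isolated with magnetic beads by Ly6G and Gr-1, a separation that can leave other splenic cells in either fraction, although the methods describe the fractions as highly pure. Nothing in the labels says which libraries came from separate animals, so p-values here measure the spread between libraries, which may be technical.

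Cdkn1a encodes p21 and Cdkn2a, on chromosome 4, encodes p16; both proteins hold back cyclin-dependent kinases and so the cell cycle. When a gene is deleted in one mouse strain and bred into another, the DNA next to the deletion tends to be inherited with it, so genes on the same chromosome arm can differ in sequence or copy number from the host strain. This is background on linked genes and not a result of these libraries, which hold no DNA measurement. The 9 genes span unrelated roles: a secreted protease, a detoxifying enzyme, a fatty acid hydroxylase, a collagen receptor, a metabolic kinase, an odorant receptor, a pseudogene and a pair of protein-coding genes known by their RIKEN clone names.

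In GRCm38 (mm10) coordinates of GENCODE M21, Cdkn1a occupies chr17:29090976-29100727 on the plus strand. On the side of lower positions lay 3 genes, 9030025P20Rik (chr17:14978468-14991572, plus strand), Prss29 (chr17:25318654-25322684, plus strand) and Ip6k3 (chr17:27143965-27167795, minus strand) at 14.1, 3.77 and 1.92 Mb from Cdkn1a. On the side of higher positions lay the other 6, Glo1 (chr17:30584936-30626871, minus strand) at 1.48 Mb, Cyp4f16 (chr17:32536558-32551798, plus strand) at 3.44 Mb, Ddr1 (chr17:35681567-35704621, minus strand) at 6.58 Mb, Gm8801 (chr17:35947246-35952297, plus strand) at 6.85 Mb, Olfr99 (chr17:37279043-37283460, minus strand) at 8.18 Mb and 9130008F23Rik (chr17:40875482-40880559, minus strand) at 11.8 Mb. The annotation calls 8 of the 9 protein coding and Gm8801 an unprocessed pseudogene, and 4 of the 9 lay within 5 Mb of Cdkn1a and 7 within 10 Mb. The deposited values are per gene, so parts of a transcript cannot be told apart.

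RefSeq promoters (GRCm38.p6, 250 bases before to 50 after a gene's start) were at hand for 7 of the 9 genes, Gm8801 and 9030025P20Rik being without one. The 5 printed are those of the protease and the detoxifying enzyme that were higher in DKO-labelled cells and those of 3 genes that were lower, so that the starts of genes with opposite differences can be read side by side. Capitals mark each match on either strand to 4 short motifs. The first is the element of many regulated promoters written TATAAA and called the TATA box. The second is the CCAAT box, whose name spells it. The third is the so-called GC box of promoters without such an element, written GGGCGG here. The last is the core that binds PU.1, a transcription factor of myeloid cells, written GAGGAAGT here.
Prss29, chr17:25318404-25318703, plus strand: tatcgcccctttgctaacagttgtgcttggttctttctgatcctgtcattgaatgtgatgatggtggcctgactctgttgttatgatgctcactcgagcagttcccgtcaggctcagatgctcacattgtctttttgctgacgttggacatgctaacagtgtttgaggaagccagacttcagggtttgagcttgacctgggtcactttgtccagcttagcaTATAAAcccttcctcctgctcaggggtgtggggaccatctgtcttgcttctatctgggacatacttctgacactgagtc
Glo1, chr17:30612610-30612909, minus strand: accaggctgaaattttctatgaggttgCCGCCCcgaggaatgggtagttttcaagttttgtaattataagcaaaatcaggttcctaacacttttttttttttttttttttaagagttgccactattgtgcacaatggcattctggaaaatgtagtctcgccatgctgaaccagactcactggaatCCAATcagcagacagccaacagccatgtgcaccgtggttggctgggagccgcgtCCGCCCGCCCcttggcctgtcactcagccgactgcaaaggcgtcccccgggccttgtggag
9130008F23Rik, chr17:40880509-40880808, minus strand: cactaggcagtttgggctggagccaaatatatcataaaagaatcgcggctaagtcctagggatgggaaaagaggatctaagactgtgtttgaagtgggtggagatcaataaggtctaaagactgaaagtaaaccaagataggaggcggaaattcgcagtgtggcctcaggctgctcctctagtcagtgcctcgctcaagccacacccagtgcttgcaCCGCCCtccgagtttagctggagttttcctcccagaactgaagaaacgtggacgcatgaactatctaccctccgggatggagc
Ip6k3, chr17:27167715-27168014, minus strand: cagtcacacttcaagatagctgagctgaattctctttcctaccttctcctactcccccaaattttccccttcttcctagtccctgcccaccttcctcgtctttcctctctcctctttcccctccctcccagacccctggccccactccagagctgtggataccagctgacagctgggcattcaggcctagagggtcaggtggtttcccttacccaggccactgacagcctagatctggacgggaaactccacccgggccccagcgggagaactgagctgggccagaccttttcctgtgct
Cyp4f16, chr17:32536307-32536606, plus strand: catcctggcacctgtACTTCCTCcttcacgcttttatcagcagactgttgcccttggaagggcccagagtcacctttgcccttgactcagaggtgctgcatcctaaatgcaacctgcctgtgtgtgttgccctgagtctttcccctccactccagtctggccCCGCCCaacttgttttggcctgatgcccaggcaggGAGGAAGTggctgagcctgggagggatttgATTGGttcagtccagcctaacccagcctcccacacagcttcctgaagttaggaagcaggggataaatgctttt

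The Prss29 start carried a TATA box 29 bases upstream and 4 CpG dinucleotides, against a median of 7 CpGs over 32851 promoters of this length, of which 13.6% hold a TATA box. The Glo1 start carried 11 CpGs, a CCAAT box and 3 GC boxes, of which 2 overlap each other; 37.4% of all promoters hold a CCAAT box and 35.7% a GC box. That of 9130008F23Rik held 1 GC box and 10 CpGs, and that of Ip6k3 held none of the 4 motifs and 4 CpGs. Cyp4f16 had 2 matches to the PU.1 letters, which 3.20% of promoters contain at least once, with a CCAAT box, a GC box and 2 CpGs. Olfr99 had 2 CCAAT boxes and 1 CpG, and the 4 annotated starts of Ddr1 had between 7 and 39 CpGs. These matches describe the letters of the reference genome and not the sequence of these mice.

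The values are FPKM, fragments mapped to a gene scaled to transcript length and library depth, as deposited. The targeted genes were read first. Cdkn1a stood at 8.18, 6.46 and 8.04 FPKM in the 3 WT Mo-MDSC libraries, at 5.55, 8.52 and 6.00 in the libraries labelled DKO and at 2.95, 1.83 and 2.40 in PMN-MDSCs. Cdkn2a stood at 0.718, 0.772 and 0.432 FPKM in WT Mo-MDSCs and at 0.258, 0.586 and 0 in those labelled DKO. Both genes overlapped between DKO-labelled and WT Mo-MDSCs, so neither value checks the genotype label; a gene-level FPKM can still rise from transcript outside a deleted stretch, and which exons were deleted is not given in the sources used here. The libraries are for this reason called DKO-labelled.

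Relative depth, taken from the step that 1 read adds to low genes, ran from 0.809 to 1.31 between libraries, the upper quartile of the values from 22 to 24.5 FPKM, and 11299 to 11418 genes reached 1 FPKM. None of 12 housekeeping genes was at 0. Summed neutrophil markers (6 of the 7 listed genes had values, Ly6g none) ran from 10343 to 27634 FPKM in PMN-MDSCs, from 4450 to 13981 in WT Mo-MDSCs and from 1949 to 4155 in DKO-labelled Mo-MDSCs, and monocyte markers (6 of 6) from 905 to 963, 1941 to 2181 and 1587 to 1723. B cell, erythroid and red pulp macrophage markers summed to 969 to 1568, 1259 to 2988 and 3574 to 6724 FPKM over all libraries. T cell, NK cell, platelet and basophil or mast cell markers summed to at most 28.1, 2.68, 9.64 and 1.29 FPKM. Below WT in every DKO-labelled library were 4 of the 6 monocyte and 3 of the 6 neutrophil markers, and above it 2 of the 6 red pulp macrophage markers, 1 of 4 B cell, 1 of 5 T cell and 1 of 5 basophil or mast cell markers. Over all 11451 genes tested, 12.9% were below and 7.96% above by this rule, and with lists this short nothing is read from the counts. No list had a measured marker at 0 in all libraries of a group. In bulk libraries fewer cells of a type and less RNA per cell cannot be told apart, and the part of these markers in the values below was not tested.

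Of the 9 genes, 5 were above WT in every DKO-labelled Mo-MDSC library and 4 were below, with no overlap for any of them. Over all 11451 genes tested, the groups did not overlap for 20.8% (7.96% higher and 12.9% lower in DKO-labelled cells), and 0.253% passed an adjusted p of 0.05 in limma (0.166% higher and 0.0873% lower). The 9 genes were chosen on this contrast, so nothing is read from their share. All 9 reached 1 FPKM in at least 3 of the 6 libraries, the filter on low values, and 5 of them did so only through the group in which they were higher. Each gene had the same direction in all 3 pairs of libraries with the same replicate number, which follows from the absence of overlap and adds nothing to it.

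**Figure D1:**
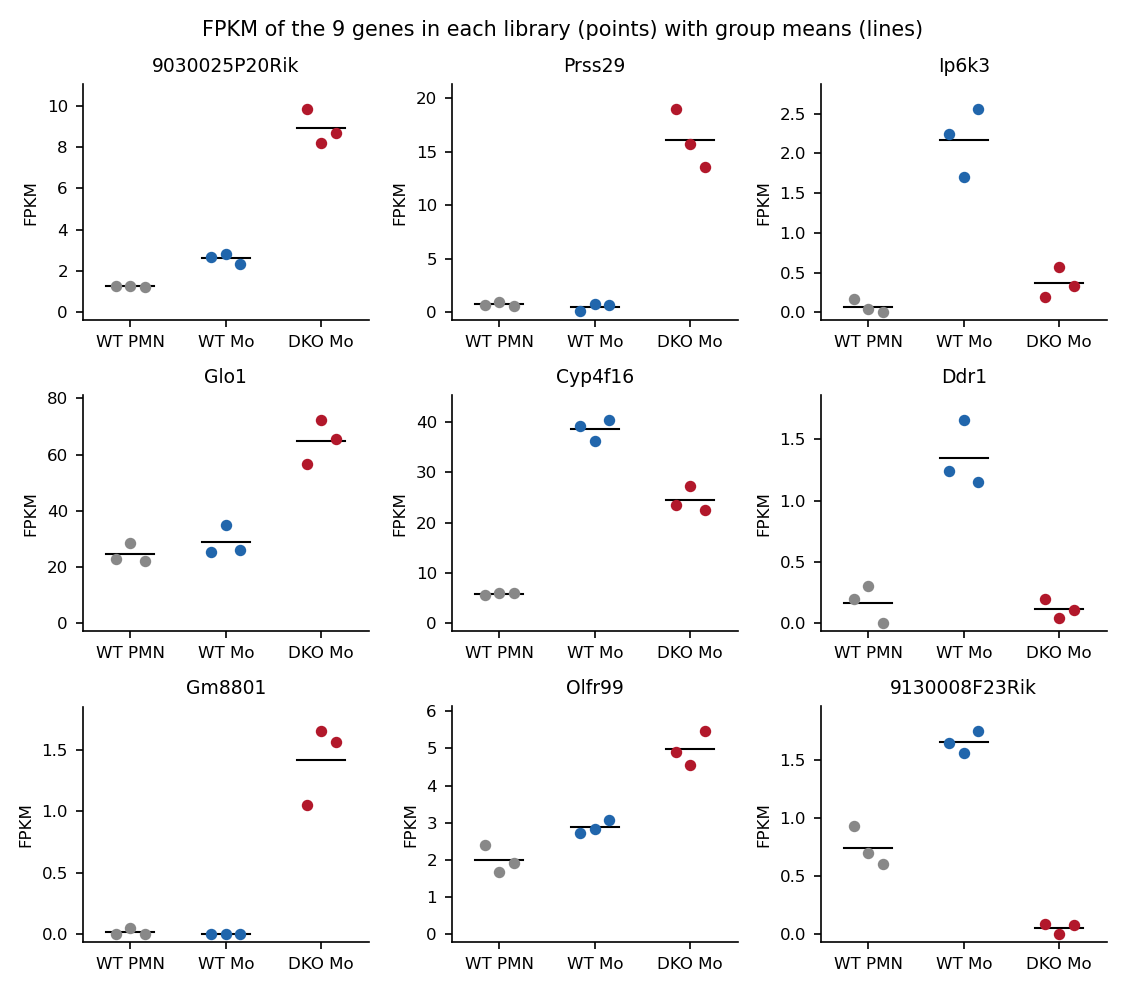
FPKM (y axis, linear, own scale per panel) of each gene in the 3 libraries of WT PMN-MDSCs, WT Mo-MDSCs and DKO-labelled Mo-MDSCs (points), with the mean of each group as a line; panels follow chromosome order. The DKO-labelled points of 9030025P20Rik, Prss29, Glo1, Gm8801 and Olfr99 all sit above the WT Mo points, and those of Ip6k3, Cyp4f16, Ddr1 and 9130008F23Rik all sit below.

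Prss29, a secreted serine protease of the tryptase-like cluster on this chromosome, had the widest log2 difference of the 9 when 0.1 FPKM is added to each value. It stood at 19, 15.7 and 13.5 FPKM in DKO-labelled Mo-MDSCs, at 0.0948, 0.764 and 0.640 in WT Mo-MDSCs, with 0.703, 0.967 and 0.563 in PMN-MDSCs. Every DKO-labelled library was thus above every library of either WT group, and the WT groups overlapped each other. The mean was 16.1 ± 2.75 FPKM (SD, n = 3) against 0.499 ± 0.356 in WT Mo-MDSCs, 32.2-fold higher, or 5.00 on the scale of log2(FPKM + 0.1) with a standard error of 0.52. Without WT Mo-MDSC replicate 1, the lowest library, the log2 difference was 4.33. Because a single read adds a fixed step to a gene's FPKM in a library, the deposited values can be read as whole reads, here 223, 217 and 173 in DKO-labelled cells, 1, 10 and 8 in WT Mo-MDSCs, with 6, 11 and 6 in PMN-MDSCs. No stretch of 75 bases, the read length, was shared with the annotated transcripts of another gene.

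The 12 other tryptase-like genes listed all lie on chromosome 17, and only Prss30 passed the filter. Prss30 had means of 1.91 FPKM in PMN-MDSCs, 1.92 in WT Mo-MDSCs and 0.820 in DKO-labelled cells, below WT in all 3 libraries and not past the adjusted threshold, and Prss32, the next highest, was at 0.0910, 0.368 and 0.177. Prss28, which lies beside Prss29, averaged at most 0.0259 FPKM in any group, and the mast cell tryptases Tpsab1 and Tpsb2 were at 0 in every library. Prss41, also below the filter, was at 0 in every WT library of either subset. In DKO-labelled cells it ran from 0.183 to 0.421 FPKM, so it was above WT in every library, as Prss29 was. None of the 12 was called in either comparison in limma; Prss30, the 1 tested, had an unadjusted p below 0.05 between the Mo-MDSC groups. Near Prss29, 0610007P22Rik on the lower side differed by -0.16 on the log2 scale, and Cacna1h and Lmf1 on the higher side by -0.92 and -0.47.

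Gm8801 was listed at 0 in all 3 WT Mo-MDSC libraries. It stood at 1.05, 1.65 and 1.56 FPKM in DKO-labelled Mo-MDSCs, and at 0, 0.0516 and 0 in PMN-MDSCs. In whole reads these were 21, 39 and 34, against 0 in every WT Mo-MDSC library and 1 in a single PMN-MDSC library. No fold is given against a group at 0. The annotated Gm8801 transcript shared no 75-base stretch with another gene, but 15.8% of its 30-base stretches also occur in Ppp1r10, a nearby gene of a phosphatase-regulating protein that stood at 15.1, 14.3 and 15.6 FPKM in DKO-labelled and at 14.4, 14.4 and 14.2 in WT Mo-MDSCs, the groups overlapping. The tested genes on either side of Gm8801 differed between -0.05 and 0.06 on the log2 scale.

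Glo1, glyoxalase 1, joins methylglyoxal, a reactive by-product of glycolysis, to glutathione for removal. Its FPKM was the highest of the 9 genes in DKO-labelled Mo-MDSCs and in PMN-MDSCs, and in WT Mo-MDSCs it was below that of Cyp4f16. Its level was 56.8, 72.4 and 65.7 FPKM in DKO-labelled Mo-MDSCs, 25.2, 35.1 and 25.9 in WT Mo-MDSCs, with 23, 28.7 and 22.3 in PMN-MDSCs. The lowest DKO-labelled library lay above the highest WT library of either subset, and the WT groups overlapped. The means were 64.9 ± 7.82 and 28.8 ± 5.48 FPKM (SD, n = 3 each), a ratio of 2.26 and a log2 difference of 1.18 with a standard error of 0.15.

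Glo1 is known as a gene whose copy number differs among inbred mouse strains, together with its neighbours. Dnahc8 (Dnah8 in GENCODE) is an axonemal dynein heavy chain gene. In GENCODE it overlaps the far end of Glo1 on the opposite strand, whereas its RefSeq position begins 0.064 kb beyond that end. Dnahc8 was at 4.00, 3.89 and 6.22 FPKM in DKO-labelled Mo-MDSCs, 1.05, 0.977 and 1.38 in WT Mo-MDSCs, with 0.928, 0.815 and 0.971 in PMN-MDSCs. Between the Mo-MDSC groups it rose by 1.94 on the log2 scale (SE 0.23, adjusted p = 0.0261 in limma). Btbd9, on the other side of Glo1, was at 6.74, 6.56 and 6.99 FPKM in DKO-labelled and at 5.30, 5.77 and 5.29 in WT Mo-MDSCs, a log2 difference of 0.31 that did not pass the adjusted threshold although the groups did not overlap. Of the 4 nearest tested genes, Dnahc8 and Btbd9 were thus above WT in every DKO-labelled library, while the other two, 1700097N02Rik, which overlaps Glo1, and Zfand3, differed by 0.01 and -0.12 with overlap. Glp1r, also nearby, was at 0 throughout. The libraries were stranded, yet neither the annotation nor the use of strand in counting is given in the sources used here. If Glo1 and Dnahc8 overlapped in that annotation, their reads in the overlap cannot be told apart. Of the 75-base stretches of Glo1, 6.35% also occur in other genes.

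Of 10 other genes of methylglyoxal and glutathione metabolism, 9 were tested and none was called in limma between DKO-labelled and WT Mo-MDSCs (3 had an unadjusted p below 0.05), with a median log2 difference of 0.03 against -0.02 over all genes. Hagh, glyoxalase 2, which completes the reaction and lies on chromosome 17 too, at 4.23 Mb from Cdkn1a, averaged 40.6 FPKM in DKO-labelled and 38.0 in WT Mo-MDSCs. Gclm, the modifier subunit of the enzyme that limits glutathione synthesis, averaged 59.1 against 29.8 FPKM, a log2 difference of 1.01 without overlap and without passing the threshold. Gss and Gclc of the same list were higher in DKO-labelled cells too, by 0.46 without overlap and by 0.41 with overlap. Neither passed the threshold. Gclm, Gss and Gclc were the 3 with an unadjusted p below 0.05. Park7 and Akr1b3 went the other way, by -0.13 and -0.08, both with overlap. The most abundant, Akr1a1 and Gsr, differed by 0.00 and -0.20.

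9030025P20Rik stood at 9.84, 8.17 and 8.68 FPKM in DKO-labelled Mo-MDSCs, at 2.65, 2.84 and 2.32 in WT Mo-MDSCs, with 1.25, 1.25 and 1.24 in PMN-MDSCs. The 3 groups did not overlap, and their order was PMN, WT Mo, DKO-labelled Mo. The mean in DKO-labelled cells, 8.90 ± 0.856 FPKM (SD, n = 3), was 3.42-fold that of WT Mo-MDSCs, a log2 difference of 1.74 with a standard error of 0.13. Most of this gene's transcript letters are not its own: 63.7% of its 75-base stretches occur in other genes, 56.0% in Ermard (2210404J11Rik in the deposited values) and 30.4% in Gm3435, both beside it. Ermard was at 13.1, 11.7 and 11.8 FPKM in DKO-labelled and 10.3, 9.51 and 8.96 in WT Mo-MDSCs, and Gm3435 at 1.69, 2.45 and 2.14 against 0.865, 0.738 and 0.558, both above WT in every library and neither past the adjusted threshold. How the authors' programs divided reads among these 3 genes cannot be seen in FPKM, so the value of 9030025P20Rik alone is uncertain. Phf10 and 1600012H06Rik on its other side differed by 0.09 and 0.02.

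Olfr99 encodes an odorant receptor. It was at 4.90, 4.56 and 5.47 FPKM in DKO-labelled Mo-MDSCs, 2.73, 2.83 and 3.07 in WT Mo-MDSCs, with 2.41, 1.69 and 1.93 in PMN-MDSCs. These groups did not overlap and stood in the order PMN, WT Mo, DKO-labelled Mo, with a ratio of 1.73 between the Mo-MDSC groups and a log2 difference of 0.77 (SE 0.13). Olfactory receptors are known for their expression in the nose. Of 1118 such genes in the libraries, 5 reached 1 FPKM in any, and of the 49 within 20 Mb of Cdkn1a, 38 were at 0 in all 9 libraries and 2 reached 1 FPKM. The other of these was its neighbour Olfr98, at 1.26, 0.390 and 2.00 FPKM in DKO-labelled and 0.766, 0.515 and 1.29 in WT Mo-MDSCs, the groups overlapping. H2-M3, the nearest tested gene, went the other way, below WT in every DKO-labelled library by a log2 difference of -0.61 that did not pass the adjusted threshold. Olfr99 shares 1.52% of its 75-base stretches with other genes, Olfr98 and Olfr97 among them.

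Among the chosen genes that were lower in DKO-labelled cells, 9130008F23Rik had the widest log2 difference. It was at 0.0850, 0 and 0.0781 FPKM in DKO-labelled Mo-MDSCs, 1.65, 1.56 and 1.75 in WT Mo-MDSCs, with 0.935, 0.702 and 0.608 in PMN-MDSCs. In whole reads this was 2, 0 and 2 against 35, 41 and 44 in WT Mo-MDSCs, with 16, 16 and 13 in PMN-MDSCs. The DKO-labelled libraries thus lay under both WT groups, which themselves did not overlap. No 75-base stretch was shared with another gene. Its 2 nearest tested genes toward higher positions, Cenpq and Mut, differed by -0.10 and 0.01 on the log2 scale, and Rhag and Crisp3 on the other side by 0.59 and 0.95, with Rhag overlapping between the groups.

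Ddr1, discoidin domain receptor 1, is a receptor tyrosine kinase switched on by collagen. It was at 0.194, 0.0411 and 0.111 FPKM in DKO-labelled Mo-MDSCs, 1.24, 1.66 and 1.15 in WT Mo-MDSCs, with 0.200, 0.30 and 0 in PMN-MDSCs. The DKO-labelled libraries overlapped the PMN-MDSCs and lay below every WT Mo-MDSC library, the means of 0.115 ± 0.0764 and 1.35 ± 0.269 FPKM (SD, n = 3 each) differing 11.7-fold and the log2 values by -2.80 (SE 0.43). Of the 75-base stretches of Ddr1, 2.87% also occur in an antisense gene, Gm4577. Of 9 other collagen receptors, 3 were tested and none was called between the Mo-MDSC groups in limma, 0 also at an unadjusted p of 0.05: Itgb1, the beta subunit of collagen-binding integrins, differed by -0.02, the inhibitory receptor Lair1 by 0.05 and the integrin subunit Itga1 by -0.03. Ddr2, its closest relative, averaged at most 0.051 FPKM in any group. Ier3 and Flot1, the tested neighbours on the higher side, were below WT in every DKO-labelled library too, by -0.89 and -0.62, and Vars2 and Gtf2h4 on the lower side differed by -0.30 and -0.27; none of these 4 passed the threshold.

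Ip6k3, an inositol hexakisphosphate kinase that makes inositol pyrophosphates, was at 0.198, 0.570 and 0.327 FPKM in DKO-labelled Mo-MDSCs, 2.24, 1.70 and 2.56 in WT Mo-MDSCs, with 0.163, 0.0408 and 0 in PMN-MDSCs. In whole reads these were 5, 17 and 9 in DKO-labelled cells, 51, 48 and 69 in WT Mo-MDSCs, with 3, 1 and 0 in PMN-MDSCs. The 3 groups did not overlap, and the DKO-labelled libraries lay between the others. The ratio of WT to DKO-labelled means was 5.94 and the log2 difference -2.35 (SE 0.36). Of 10 other inositol phosphate kinases, 9 were tested and none was called in this contrast in limma, 0 also at an unadjusted p of 0.05, the differences running from -0.16 to 0.19. Ip6k1, the main paralog in these cells, averaged 45.7 FPKM in WT and 49.1 in DKO-labelled Mo-MDSCs. Itpr3, one of the nearest genes, was above WT in every DKO-labelled library by 0.58, and Lemd2, 2900010M23Rik and Hmga1 overlapped.

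Cyp4f16 belongs to the cytochrome P450 4F enzymes, which hydroxylate fatty acids and leukotrienes at the chain end. It was at 23.4, 27.3 and 22.6 FPKM in DKO-labelled Mo-MDSCs, 39.2, 36.2 and 40.4 in WT Mo-MDSCs, with 5.53, 5.98 and 6.01 in PMN-MDSCs. The groups did not overlap, with DKO-labelled cells between the others, and the ratio of the WT to the DKO-labelled mean was 1.58 (log2 difference -0.66, SE 0.10). About 10.1% of its 75-base stretches are shared with other genes, mostly Cyp4f37, a neighbouring paralog carried under the name Gm9705 at 0.833, 0.458 and 0.767 FPKM in WT and 0.341, 0.231 and 0.219 in DKO-labelled Mo-MDSCs. Of the other Cyp4f genes, Cyp4f13 and Cyp4f18 were tested and neither was called in limma in this contrast, although both had an unadjusted p below 0.05, with differences of -0.29 and -0.49. Both were below WT in every DKO-labelled library. Cyp4f13 lies on chromosome 17 and Cyp4f18 on chromosome 8. Pglyrp2, A530088E08Rik, Zfp871 and Zfp799, the nearest tested genes, all overlapped between the groups.

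The question of the second comparison was how these genes, picked for the genotype contrast, stand between the WT subsets. Of the 9, 7 passed the filter, 3 of them (9130008F23Rik, Ddr1 and Ip6k3) only through WT Mo-MDSCs, and 6 of the 7 were called in limma at an adjusted p of 0.05, each higher in WT Mo-MDSCs. The 3 that passed only through WT Mo-MDSCs had to differ, so their values are given without a test. Over all 11491 genes tested, 39.1% were called, 18.5% higher and 20.6% lower in WT Mo-MDSCs. By the plain rule that the libraries of the 2 groups do not overlap, 6 of the 9 genes were higher in WT Mo-MDSCs and none lower, against 52.5% of all genes tested (26.2% higher and 26.4% lower). This fit shares the WT Mo-MDSC libraries with the contrast that chose the genes, so the count is no independent result. With any 1 WT Mo-MDSC library left out, 2 genes were called, since the 3 that passed only through that group then dropped below the filter and Olfr99 lost its call; with replicates 2 and 3 alone there were also 2, and among genes with 1 FPKM in every library there were 3.

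Cyp4f16 rose by 2.70 on the log2 scale (SE 0.08, adjusted p = 3.2e-06) in WT Mo-MDSCs against PMN-MDSCs, 6.61-fold on the means. The log2 difference was 3.85 for Ip6k3 (SE 0.44), 2.65 for Ddr1 (SE 0.56) and 1.07 for 9130008F23Rik (SE 0.22), and without PMN-MDSC replicate 3 that of Ddr1 was 2.05. These genes and Cyp4f16 were chosen for a level in WT Mo-MDSCs above that in DKO-labelled cells, a choice that by itself favours a higher value in this comparison. 9030025P20Rik rose by 1.00 (SE 0.15, adjusted p = 0.00225). Olfr99 rose by 0.51 (SE 0.16, adjusted p = 0.0457) and lost the call in 9 of the alternatives, among them each WT Mo-MDSC library left out. Glo1 differed by 0.21 (SE 0.16, adjusted p = 0.318), and in the fit blocked by replicate number, in which same-numbered libraries are paired, it passed with an adjusted p of 0.0167. Prss29 and Gm8801 were below 1 FPKM in every WT library and were not tested.

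**Figure D2:**
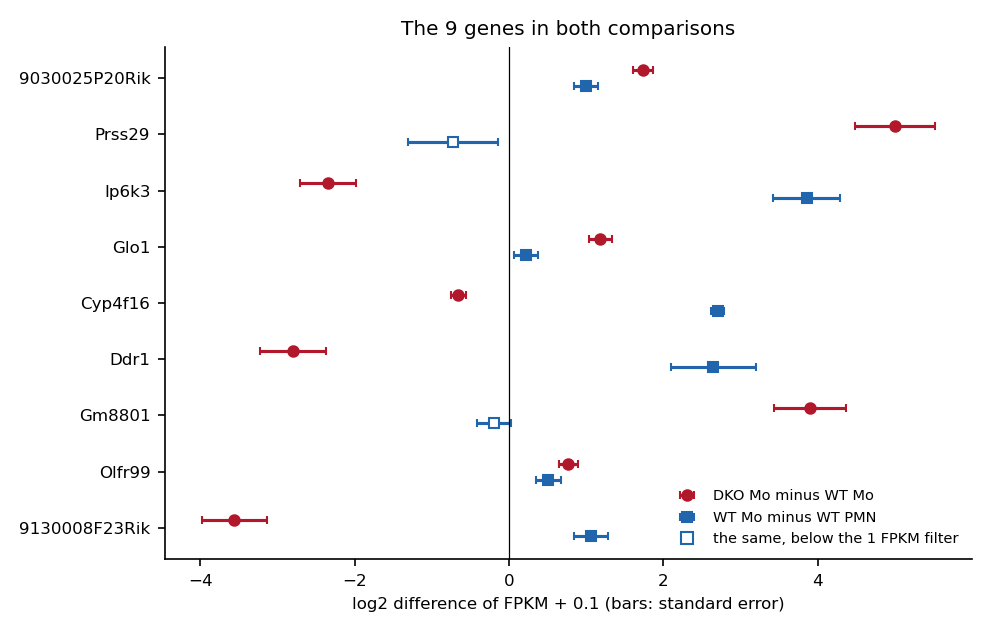
Log2 difference (x axis, log2 of FPKM + 0.1, bars are standard errors) of DKO-labelled minus WT Mo-MDSCs (circles) and of WT Mo-MDSCs minus PMN-MDSCs (squares; open where the gene was below the filter) for the 9 genes in chromosome order. Ip6k3, Cyp4f16, Ddr1 and 9130008F23Rik have circles left and squares right of 0, and 9030025P20Rik and Olfr99 have both right of 0; the comparisons share the WT Mo-MDSC libraries.

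Set against the families, the subset differences ran the other way for several relatives. Ip6k1 fell by 1.11 on the log2 scale in WT Mo-MDSCs against PMN-MDSCs (adjusted p = 6.41e-05), and Ipmk and Itpkb were lower too, 3 of 9 tested inositol phosphate kinases in all with none higher. Cyp4f18 fell by 1.06 (adjusted p = 0.000391) while Cyp4f13 was not called. In the glyoxalase list Gsr fell by 1.24 (adjusted p = 0.000543), Glod4 and Gclm were lower as well, and none of the 9 tested was higher. Among collagen receptors Itga1 rose by 1.06 (adjusted p = 0.0085) and Itgb1 by 0.38 (adjusted p = 0.0103).

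Around Cdkn1a itself, 438 of the 803 genes within 20 Mb were tested between the Mo-MDSC groups, and 9 of them (2.05%) passed the adjusted threshold, 8 higher and 1 lower in DKO-labelled cells. By other rules the balance in the same window was the opposite: the groups did not overlap for 42 genes higher and 73 lower, and 30 higher and 37 lower passed the study's fold and unadjusted p thresholds. Without the 9 chosen genes 4 of 429 passed (0.932%), against 20 of 10845 (0.184%) outside the windows around Cdkn1a and Cdkn2a, 0 of 193 on the rest of chromosome 17 and 0 of 85 within 20 Mb of Cdkn2a. At an unadjusted p below 0.05 in limma there were 96 of the 438, 87 of the 429, 1590 of the 10845, 34 of the 193 and 19 of the 85, so that by this rule the window around Cdkn2a had about the same share as that around Cdkn1a. These shares describe the regions, the chosen genes having been taken from this one, and no test of the regions was made. The count of 9 was 6 without WT Mo-MDSC replicate 2, 4 without WT replicate 1, without WT replicate 3, without DKO-labelled replicate 1 or without DKO-labelled replicate 2, and 3 without DKO-labelled replicate 3.

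The 4 others are Dnahc8 and 3 more. H2-T24, a class Ib gene of the major histocompatibility complex, averaged 116 ± 7.25 FPKM in DKO-labelled, 41.8 ± 1.07 in WT Mo-MDSCs (SD, n = 3 each) and 80.0 in PMN-MDSCs, and rose by 1.47 on the log2 scale (SE 0.08, adjusted p = 0.00147). H2-T10, of the same class, averaged 20.6 ± 1.36 against 7.79 ± 0.960 FPKM (log2 difference 1.40, SE 0.11, adjusted p = 0.00491). Both lie close to Gm8801, at 6.9 and 7.02 Mb from Cdkn1a. 3110052M02Rik, at 7.43 Mb on the lower side, averaged 5.40 ± 0.515 against 2.31 ± 0.376 FPKM (log2 difference 1.20, SE 0.16, adjusted p = 0.0355).

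**Figure D3:**
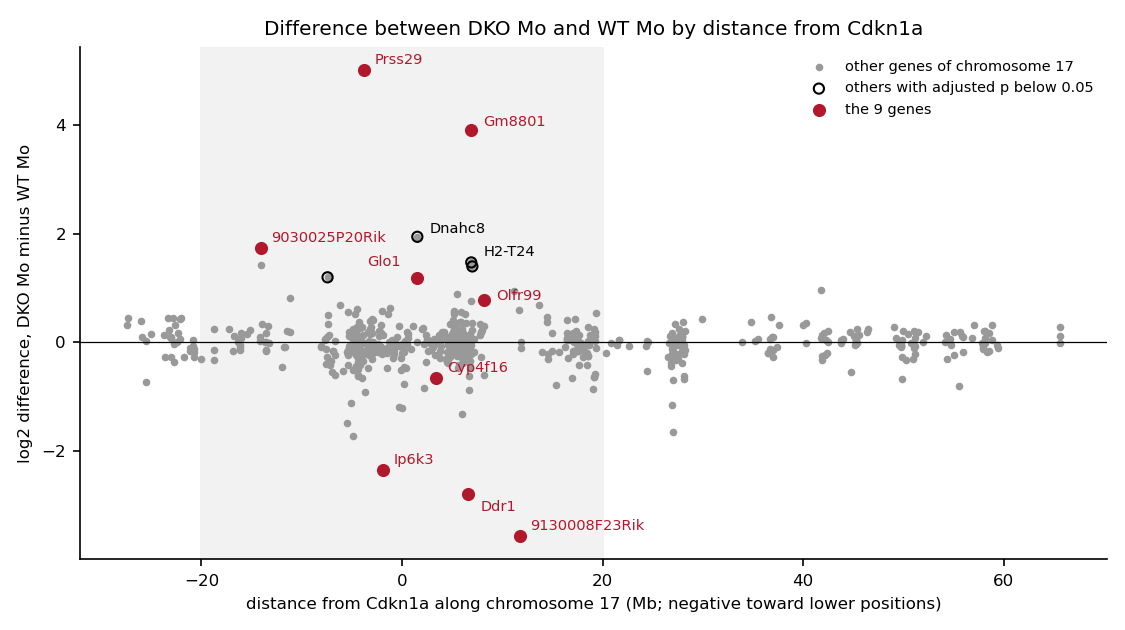
Log2 difference of DKO-labelled minus WT Mo-MDSCs (y axis) for every tested gene of chromosome 17 by distance from Cdkn1a in Mb (x axis; shaded, within 20 Mb); filled red points are the 9 chosen genes and ringed points the other genes with an adjusted p below 0.05. All ringed points lie inside the shaded window, where chosen genes with large positive and negative differences stand among genes near 0.

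Most of the tested genes beside the chosen ones differed by less than 1 on the log2 scale. The 2 nearest tested genes on each side of each made 34 genes, of which 1 (Dnahc8) was called, 13 did not overlap between the groups and 2 (Dnahc8 and Gm3435) differed by more than 1 on the log2 scale. Closest to Cdkn1a, Srsf3 differed by -0.04, Stk38 by -0.30 and Kctd20 by -0.51 on the lower side, and Rab44 by -1.21, Ppil1 by -0.77 and BC004004 by -0.17 on the higher side. Of these 6, Srsf3 alone overlapped between the groups and none passed the adjusted threshold. Over the window, without the chosen genes, the median size of the difference was 0.17 on the log2 scale, against 0.14 outside both windows. The groups did not overlap for 24.7% of these window genes, against 20.6% outside both windows. With the chosen genes, which were picked on this contrast, the window values were 0.17 and 26.3%.

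**Figure D4:**
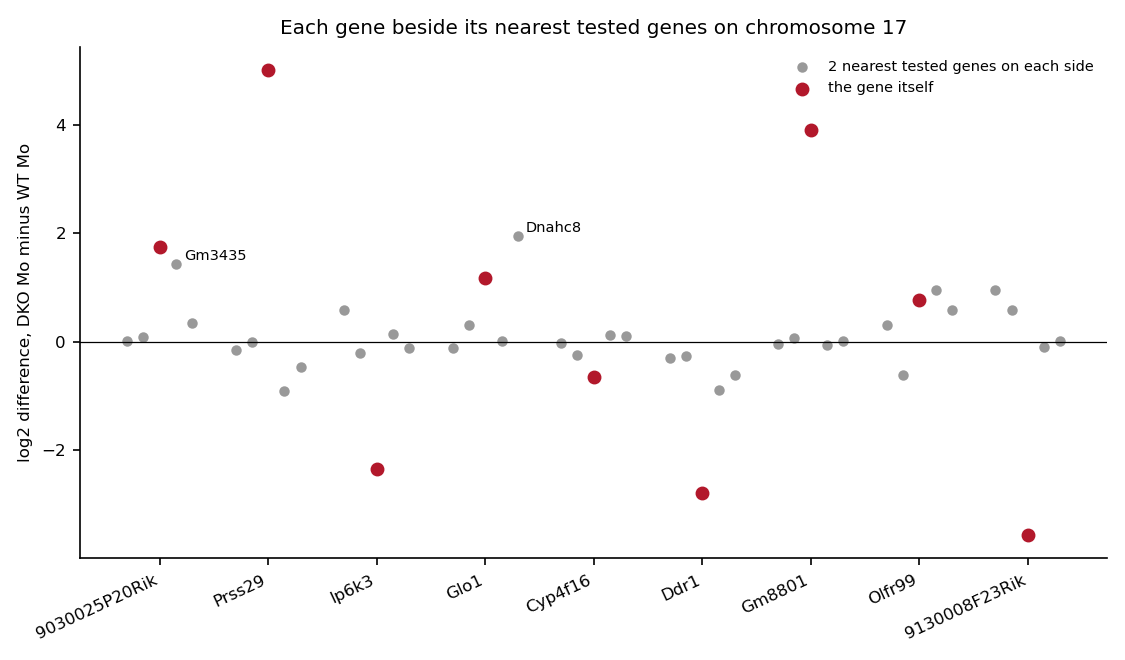
Log2 difference of DKO-labelled minus WT Mo-MDSCs (y axis) of each chosen gene (red) and of the 2 nearest tested genes on each side (grey), the genes in chromosome order along the x axis. Gm3435 beside 9030025P20Rik and Dnahc8 beside Glo1 are the only grey points beyond 1 on the log2 scale.

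Across the 9 libraries, on log2(FPKM + 0.1), the patterns most like each gene among 11520 genes averaging at least 1 FPKM were found by Pearson's r, as a description over libraries that fall into 3 groups. For the genes high in DKO-labelled cells these were Rxra (r = 0.961) and Slc48a1 (0.955) for Prss29, Ppp2r1b (0.984) and Clec16a (0.981) for Gm8801, and Ppp2r1b (0.978) and Slc12a7 (0.969) for Glo1. For the genes lowest in PMN-MDSCs and highest in DKO-labelled cells they were Fam98a (0.982) and Abcc1 (0.978) for 9030025P20Rik, and Ciita (0.979) and Utp20 (0.977) for Olfr99. For the genes highest in WT Mo-MDSCs they were Ddx52 (0.918) and Nit2 (0.916) for 9130008F23Rik, Gm5547 (0.960) and Rwdd2a (0.922) for Ddr1, Stau1 (0.966) and Hadh (0.962) for Ip6k3, and Elmo2 and Ace (both 0.998) for Cyp4f16. Gm8801, 9130008F23Rik, Ddr1 and Ip6k3 averaged under 1 FPKM and were therefore outside the search. Compared directly, Gm8801 reached 0.961 with Glo1, 0.957 with Prss29 and -0.956 with 9130008F23Rik, and 9030025P20Rik reached 0.961 with Olfr99. The chosen genes were all picked on the same contrast, which by itself favours large r of either sign between them, so nothing is read from these values.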

How the data were processed

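RNA was sequenced from MDSCs of mouse spleen in 9 libraries, and their titles gave group and replicate. The authors prepared stranded mRNA libraries, read 75 bases from one end, mapped reads to mm10 with TopHat2 2.0.13, Bowtie2 2.2.3 and SAMtools 0.1.19, and deposited FPKM values from Cuffnorm 2.2.1 for 23284 gene symbols; the annotation and the library scaling are not given in the sources used here. Depth in reads is not given either, so relative depth and whole reads were taken from the steps of low values (whole reads within 0.05). After adding 0.1 FPKM and taking log2, each comparison of 6 libraries was fitted with limma 3.58.1 (R 4.3.3; trend, no covariates) over the genes that reached 1 FPKM in 3 or more of them, and p-values were adjusted by Benjamini-Hochberg over all genes tested. The median standard error was 0.12 in both comparisons. The script was tested on simulated data.

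Same-numbered libraries deviated together between the WT subsets (correlations of 0.29, 0.48 and 0.20), so the replicate number was also fitted as a block. Symbols were placed by GENCODE M21 (20873) or RefSeq (2163), and 248 were not placed. The genes named are the 9 chosen ones, the targeted genes, the nearest tested neighbours, window genes with an adjusted p below 0.05, lists of relatives and marker lists, and the 2 most similar genes for each; the genes sharing sequence with the chosen ones, Glp1r and relatives beyond the 2 highest or called were named after their values were seen. The chosen genes, lists and tests were set with earlier results of these data known. Alternatives were other pseudocounts, filters, scalings, fits, windows, the study's thresholds and each library left out. Python 3.11.15, pandas 2.3.3, numpy 2.4.6 and matplotlib 3.10.9 were used.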

Additional observations from a re-analysis of the deposited data

How the results depend on the processing

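No log2 difference of a chosen gene changed direction under any alternative in which it was computed. In WT Mo-MDSCs against PMN-MDSCs, a chosen gene still tested lost its call under 9 settings, all for Olfr99, while 9130008F23Rik, Ddr1 and Ip6k3 left the test where the filter no longer passed them; a call was gained under 1, the replicate block, for Glo1; the block changed no other call. In that comparison the 6 chosen genes called became 3 with 1 FPKM required in every library, 2 with replicates 2 and 3 only, and 2 to 6 with a library left out. Over all genes the 4492 called (2121 higher and 2371 lower; 2542 and 2041 after quantile normalization) became 6584 with the replicate block, 2759 with replicates 2 and 3 only, 1172 under the study's thresholds (fold and unadjusted p), and 3295 to 3864 with a library left out.

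Between DKO-labelled and WT Mo-MDSCs, the 9 genes called within 20 Mb of Cdkn1a became 2 with replicates 2 and 3 only, 0 without variance moderation, 67 under the study's thresholds, 3 in a window of 5 Mb, and 3 to 6 with a library left out. The 29 called over all genes became 13 without a filter, 51 with all 9 libraries in 1 fit, 6 with replicates 2 and 3 only, 0 without variance moderation (1719 genes had an unadjusted p below 0.05 in the moderated limma fit), 801 under the study's thresholds (294 higher and 507 lower, against 19 and 10), and 8 to 25 with a library left out. Here same-numbered libraries had correlations of 0.35, 0.23 and -0.07, against -0.39 to 0.17 between different numbers, so whether the numbers pair the libraries was not clear. The block gave 6 genes in the window and 20 in all. Between pseudocounts of 1 and 0.01 the log2 differences ran from 3.53 to 5.41 for Prss29, 1.27 to 7.13 for Gm8801, -1.33 to -5.25 for 9130008F23Rik, -1.07 to -3.63 for Ddr1 and -1.21 to -2.64 for Ip6k3, and in WT Mo-MDSCs against PMN-MDSCs from 1.56 to 5.59 for Ip6k3 and 1.01 to 3.95 for Ddr1; Gm8801 thus passed Prss29 at the lower one. The cause of the other changes was not tested.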

Other observations

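On the rest of chromosome 17, beyond 20 Mb from Cdkn1a, none of 193 tested genes was called between DKO-labelled and WT Mo-MDSCs in limma (34 had an unadjusted p below 0.05), and 42 of them, 21.8%, did not overlap between the groups. Lrg1, a secreted glycoprotein abundant in neutrophils, had the widest difference there, with means of 20.1 FPKM in DKO-labelled and 62.3 in WT Mo-MDSCs and 761 in PMN-MDSCs. Mmp25, a membrane protease of neutrophils at 5.45 Mb from Cdkn1a, had means of 2.96, 8.86 and 47.2 FPKM in the same order, and Rab44, beside Cdkn1a, 6.90, 16.8 and 37.6. All 3 were highest in PMN-MDSCs and lowest in DKO-labelled cells, as was the sum of neutrophil markers, and the part of that sum in them was not tested. Of the 9 chosen genes, none was lowest in DKO-labelled cells and highest in PMN-MDSCs. 9030025P20Rik and Olfr99 stood in the reverse order without overlap, lowest in PMN-MDSCs and highest in DKO-labelled cells. The means of Glo1 had this reverse order too (24.7, 28.8 and 64.9 FPKM in PMN-MDSCs, WT Mo-MDSCs and DKO-labelled Mo-MDSCs). The part of neutrophil content in the values of the 9 genes was not tested either. Lrg1, Mmp25 and Rab44 were named here after their values were seen.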
